A study of Mus musculus with 4 samples.

Results

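The nuclear genes for subunits and assembly factors of the mitochondrial respiratory chain were followed in single nuclei of photothrombotic (PT) brain lesions at 21 days post-injury (dpi). Members were taken by symbol (Nduf followed by a, b, c, s or v, Sdh followed by a, b, c or d, Uqcr, Cox4 to Cox8 and Atp5). They needed at least 100 unique molecular identifiers (UMIs, counted transcript molecules) summed over the 4 matrices, and 92 of the 101 matching genes did, of 33696 genes in all. They comprised 37 genes for complex I, 4 for complex II, 8 for complex III, 14 for complex IV (with Ndufa4), 17 for complex V and 12 for assembly factors. The 9 genes below the minimum were Cox6a2 (84 UMIs), Ndufa4l2 (53), Cox7a1 (42), Cox4i2 (34), Cox5b-ps (20), Ndufb4b (18), Cox8c (1), Cox8b and Ndufb11b (0 each). The lowest members just inside it were Cox6b2 with 234 UMIs and Sdhaf1 with 415.

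The respiratory chain transfers electrons from NADH and succinate to oxygen, pumps protons across the inner mitochondrial membrane, and lets ATP synthase (complex V) use the gradient to make ATP. Most subunits are encoded in the nucleus and imported, and the remainder are encoded by the mitochondrial genome, so complexes I, III, IV and V are built from both. Neurons depend on this supply for firing and synaptic transmission, and fast-spiking interneurons are known for a high demand.

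The library labelled control came from wild-type (WT) mice, and the library labelled Cxcl12-cKO from mice with Col1a2(creER), a tamoxifen-inducible Cre expressed in fibroblasts, and floxed Cxcl12, a chemokine gene. Both received PT injury, a focal cortical ischaemia made by light activation of a dye, and were examined as brain at 21 dpi, with 1 male and 1 female mouse pooled per genotype, the labels giving no age and the study's methods only a general range of weeks. Lesion and surrounding parenchyma (perilesional cortex) were dissected, processed and tagged separately, then mixed at a ratio the authors set, sorted as nuclei and captured as 1 library per genotype. With 1 library per genotype, genotype and library cannot be told apart, and no test between genotypes was made.

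The 4 matrices held 31995274 to 62749811 UMIs. Of 23489 barcodes, 21743 nuclei were kept, with median depths of 2962 and 2975 UMIs in the lesion and 15915 and 16648 UMIs in the parenchyma. No barcode was shared by the regions of a library, and 1 to 22 were shared between matrices of different libraries. Levels are given as CPM, the UMIs of a gene scaled to a common total of UMIs in the class. Cxcl12 was at 106 CPM in lesional fibroblast-like nuclei labelled control and at 216 CPM in those labelled Cxcl12-cKO. The targeted gene thus went against the labels, but no source used here gives the deleted part, and 3′ counts outside it would check nothing. Libraries are therefore named by their labels, and paired values below give the library labelled control first. Classes were named from marker genes and are written as class-like.

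The members held 297232 UMIs over all kept nuclei, or 1858 CPM. Complex I took 35.6% of them, complex II 6.98%, complex III 7.57%, complex IV 15.8%, complex V 21.4% and the assembly factors 12.7%. The 10 members with the most UMIs held 30.3%. They included Ndufs4 (17559 UMIs), an accessory subunit of complex I, Sdha (11119), the flavoprotein of succinate dehydrogenase, Atp5c1 (8673), the γ subunit of ATP synthase, Ndufs1 (8632), an iron–sulfur core subunit of complex I, and Atp5a1 (8580), the α subunit of ATP synthase. The others were Cox7c (8560), a small subunit of complex IV, Ndufv2 (7241), an iron–sulfur core subunit of complex I, Uqcrc2 (6864), a core protein of complex III, and the complex I assembly factors Ndufaf2 (6600) and Ndufaf7 (6373). UMI totals of different genes are not levels per length. Totals were larger for genes of longer genomic span (r = 0.50, Spearman's rho = 0.51 over 92 members, all from the same libraries, given as a description). Spans ran from 1.21 kb to 156 kb with a median of 7.72 kb, and the 61 members under 10 kb held 49.8% of the UMIs. A further limit is that 6 members overlap another annotated gene on the same strand (Ndufb2, Ndufa13, Cox4i1, Ndufb9, Ndufb8 and Atp5o), so their counts are uncertain.

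Levels were compared between classes as the summed CPM of the members. Lesional T-cell-like nuclei had 3255 and 3327 CPM, or 3291 ± 51.1 CPM (SD, n = 2 libraries). Lesional excitatory-neuron-like nuclei had 1346 and 1284 CPM, or 1315 ± 43.8 CPM. Among classes with at least 100 lesional nuclei these were the ends of the order. Between them lay the mural-like nuclei (2363 and 2854 CPM, from 69 nuclei), endothelial-like (2539 and 2615), myeloid-like (2473 and 2287), fibroblast-like (1964 and 1864), osteoblast-lineage-like (1809 and 1998), astrocyte-like (1783 and 1718), inhibitory-neuron-like (1745 and 1749), oligodendrocyte-like (1709 and 1762) and oligodendrocyte-precursor-like nuclei (1571 and 1678). Mural-like values overlapped those of endothelial-like and myeloid-like nuclei, as did fibroblast-like with osteoblast-lineage-like values, and astrocyte-like with inhibitory-neuron-like and oligodendrocyte-like values. Excitatory-neuron-like values lay below those of the other lesional classes named here in both libraries, and T-cell-like values above. When nuclei were assigned to the female and the male mouse of each library by sex-linked transcripts, leaving out those assigned to neither, T-cell-like values were 4309 CPM (59 nuclei) and 1982 CPM (27 nuclei) in the library labelled control, and 2650 CPM (46) and 2703 CPM (24) in the other. In the male control mouse, endothelial-like (2803 CPM), mural-like (2569) and myeloid-like (2133) nuclei lay higher than T-cell-like nuclei. So did mural-like nuclei (3458 CPM from 10 nuclei) in the female and endothelial-like nuclei (2899 CPM) in the male Cxcl12-cKO mouse. Among assigned nuclei, T-cell-like nuclei were thus highest in 1 of the 4 mice. In the library labelled Cxcl12-cKO both T-cell-like values by mouse lay below the 3327 CPM of all 106 nuclei. The T-cell-like nuclei left out there thus had higher levels, and the count of mice does not cover them. Excitatory-neuron-like values by mouse were 1336 and 1328 CPM, and 1290 and 1331 CPM.

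In the parenchyma, inhibitory-neuron-like nuclei had 2341 and 2349 CPM and excitatory-neuron-like nuclei 1716 and 1742 CPM. The excitatory over inhibitory ratio was 0.737 (log2 -0.45 and -0.43 in the libraries), a gap far larger than the difference between libraries. Among inhibitory subtypes, Pvalb/Sst-like nuclei had 2729 and 2693 CPM, Adarb2 (Vip/Lamp5)-like nuclei 2294 and 2092 CPM and striatal-projection-like nuclei 1924 and 2034 CPM. The excitatory subtypes were closer together, at 1725 and 1720 CPM for deep-layer-like, 1670 and 1725 CPM for upper-layer-like and 1606 and 1658 CPM for middle-layer-like nuclei. Parenchymal myeloid-like nuclei had 5649 and 3846 CPM but numbered 31 and 46 only, and parenchymal fibroblast-like nuclei had 2663 and 2714 CPM from 42 and 44.

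**Figure D1:**
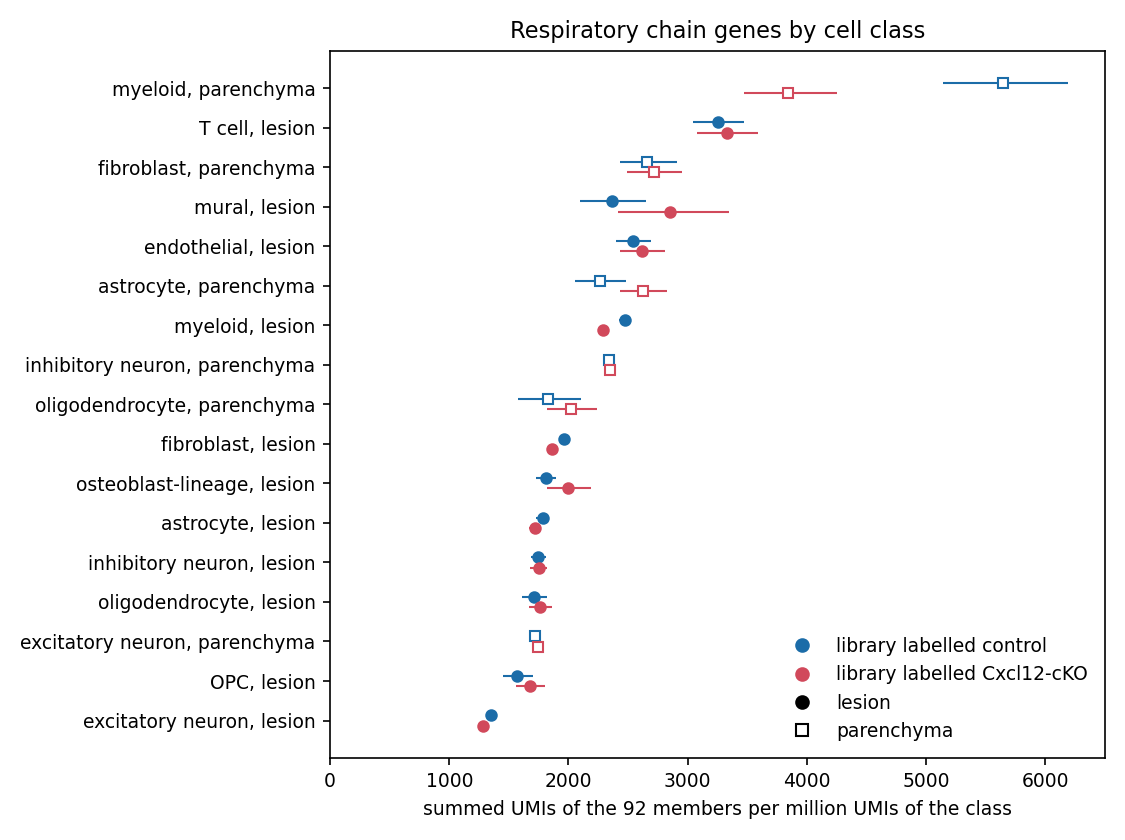
Summed level of the 92 members in CPM (x axis), for classes of each region (y axis), in the library labelled control (blue) and the library labelled Cxcl12-cKO (red). Filled circles are lesional and open squares parenchymal nuclei, lines are exact 95% Poisson intervals, and lesional excitatory-neuron-like nuclei lie lowest at 1346 and 1284 CPM.

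Single members followed the same order in many cases. Of the 92 members, 55 had their highest level in lesional T-cell-like nuclei and 47 their lowest in lesional excitatory-neuron-like nuclei, over the 12 combinations of class and region with at least 100 nuclei. Of the 18029 genes with at least 100 UMIs in these, 18.3% were highest and 12.4% lowest in the same nuclei. The 55 highest levels in T-cell-like nuclei rested on 2 to 59 UMIs each. Mitochondrially encoded and ribosomal protein transcripts were also high in lesional T-cell-like nuclei, at 32386 and 38687 CPM and at 19578 and 19031 CPM. In lesional excitatory-neuron-like nuclei they were at 1482 and 1595 CPM and at 1721 and 1676 CPM. T-cell-like nuclei had a median of 1418 and 1416.5 UMIs, against 14001 and 12715.5 UMIs, and the part of these differences in the order was not tested. Of the other members, 13 were highest in lesional endothelial-like nuclei, on 11 to 134 UMIs each. Sdha and Ndufs1 were highest in lesional fibroblast-like nuclei (100.2 and 65.1 CPM over both libraries), Sdhb, the iron–sulfur subunit of complex II, in lesional myeloid-like nuclei (64.5 CPM), and Ndufaf4, a complex I assembly factor, in parenchymal inhibitory-neuron-like nuclei (66.9 CPM from 1025 UMIs). Ndufaf4 stood 3.05-fold above its median over the classes. No member passed 4-fold over its median class on at least 100 UMIs.

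Alternative subunits of complex IV showed more restricted patterns on few counts. Cox6a2, an isoform best known from heart and skeletal muscle, had 43 UMIs in parenchymal inhibitory-neuron-like nuclei (2.81 CPM, exact 95% interval 2.03 to 3.78). It had 6 UMIs in the more deeply sequenced parenchymal excitatory-neuron-like nuclei (0.0763 CPM, 0.0280 to 0.166), so the classes differed beyond counting error. Of the 43 UMIs, 37 were in Pvalb/Sst-like nuclei (6.21 CPM) and 6 in Adarb2 (Vip/Lamp5)-like nuclei (1.84 CPM). Outside neurons, myeloid-like nuclei held 12 UMIs of Cox6a2 over both regions, on a smaller total of UMIs than excitatory-neuron-like nuclei. In lesional inhibitory-neuron-like nuclei Cox6a2 had 3 UMIs (0.990 CPM, 0.204 to 2.89). Such intervals and those below cover counting error only.

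Cox7b2, an isoform of Cox7b known from testis, was counted mainly in neurons. Its level was 12.2 CPM (8.59 to 16.8, 37 UMIs) in lesional and 5.03 CPM (3.97 to 6.28, 77 UMIs) in parenchymal inhibitory-neuron-like nuclei. In excitatory-neuron-like nuclei it was 5.44 CPM (4.13 to 7.03) and 3.84 CPM (3.42 to 4.30), against 0.139 CPM (0.0379 to 0.356) in lesional fibroblast-like nuclei. Cox6b2, the corresponding isoform of Cox6b1, was instead counted in lesional astrocyte-like (6.89 CPM, 4.75 to 9.68, 33 UMIs) and fibroblast-like nuclei (4.45 CPM, 3.71 to 5.29, 128 UMIs). In lesional excitatory-neuron-like nuclei it had 1 UMI. Cox7b2 was named after its values were seen, and the other isoforms by rule.

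Hypoxia-associated isoforms were near the limit of detection. Cox4i2 had 3 UMIs (17.4 CPM, 3.59 to 50.9) and Ndufa4l2 had 4 UMIs (23.2 CPM, 6.32 to 59.4) in the 69 lesional mural-like nuclei. Ndufa4l2 had 36 UMIs in lesional fibroblast-like nuclei (1.25 CPM, 0.876 to 1.73) and 0 in lesional myeloid-like nuclei, with an exact 95% interval up to 0.372 CPM. Cox7a1, a muscle isoform, had 18 of its UMIs in excitatory-neuron-like and 11 in fibroblast-like nuclei, which held fewer UMIs in all. Cox8b was not detected. The common counterparts of these isoforms were counted in every one of these classes. Cox4i1 was at 44.8 CPM in parenchymal inhibitory-neuron-like, 32.1 CPM in parenchymal excitatory-neuron-like, 27.8 CPM in lesional fibroblast-like and 58.3 CPM in lesional myeloid-like nuclei. Over the same classes Cox6a1 was at 23.9, 17.5, 15.2 and 21.5 CPM. Atp5g1, Atp5g2 and Atp5g3 encode the same mature c subunit of the ATP synthase rotor. In lesional myeloid-like nuclei they were at 13.2, 41.2 and 14.2 CPM and in lesional fibroblast-like nuclei at 7.09, 31.2 and 9.42 CPM. Parenchymal inhibitory-neuron-like nuclei had them at 21.6, 20.04 and 19.4 CPM, so the share of Atp5g2 differed between these classes.

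**Figure D2:**
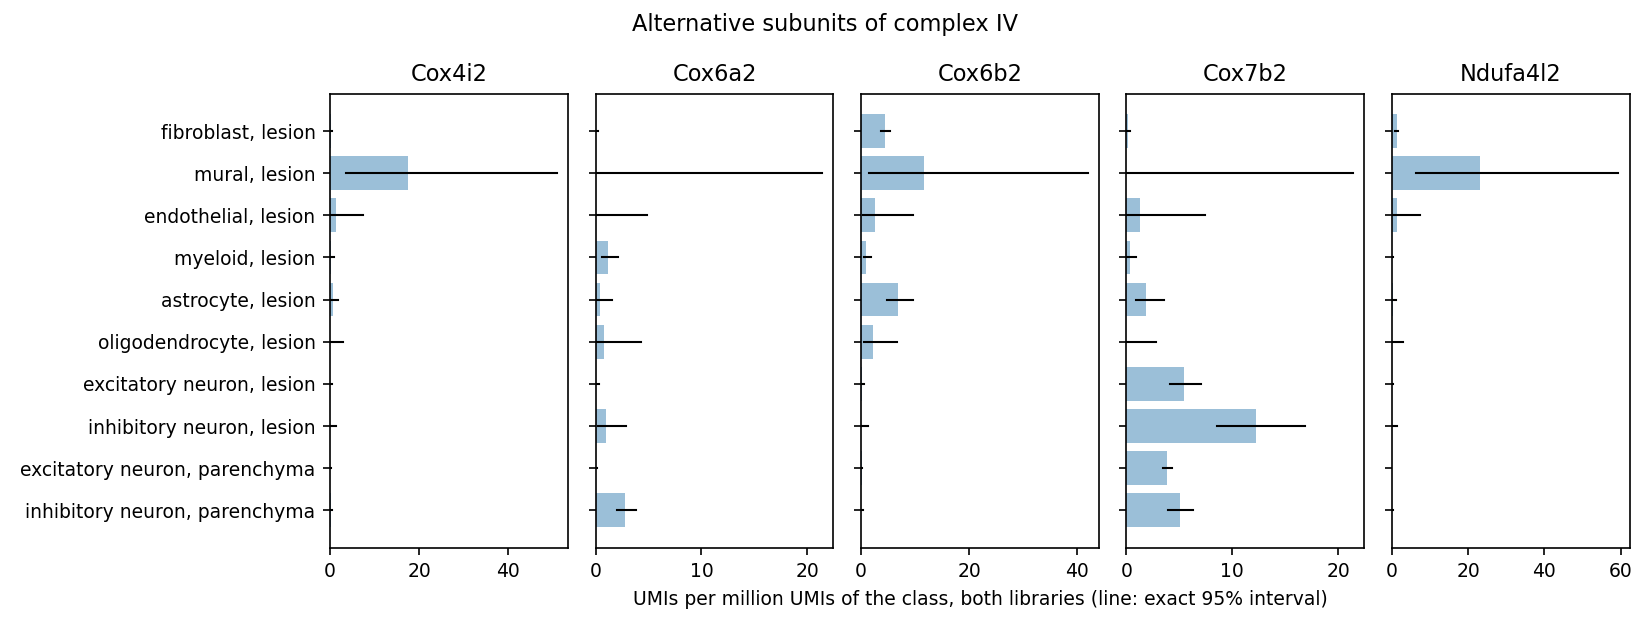
Level in CPM (x axes, each with its own scale) of 5 alternative complex IV subunits in 10 combinations of class and region (y axis), over both libraries. Bars start at 0 and lines are exact 95% Poisson intervals. Cox6a2 is highest in parenchymal inhibitory-neuron-like nuclei (2.81 CPM) and Cox7b2 in lesional ones (12.2 CPM) among classes with more than 100 nuclei.

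To ask how neurons at the lesion differed from those of the parenchyma, UMIs were summed per class, region and library, and the regions were compared with edgeR's quasi-likelihood test with library as a block, p-values adjusted by Benjamini-Hochberg over all genes tested. In excitatory-neuron-like nuclei the summed members were at 1346 and 1284 CPM in the lesion and at 1716 and 1742 CPM in the parenchyma. The log2 ratios were -0.35 and -0.44, a mean lesion level 0.760 times that of the parenchyma. In inhibitory-neuron-like nuclei the values were 1745 and 1749 CPM in the lesion and 2341 and 2349 CPM in the parenchyma, with log2 ratios of -0.42 and -0.43. Every lesion value lay below every parenchyma value within each class. The direction was the same in all 4 excitatory and both inhibitory clusters with at least 20 nuclei in each sum, with log2 ratios from -0.50 to -0.25 in the library labelled control and from -0.46 to -0.39 in the library labelled Cxcl12-cKO.

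In excitatory-neuron-like nuclei 91 of the 92 members passed the filter on low counts, and edgeR called 39 lower and 2 higher in the lesion at an adjusted p under 0.05. Over the 17783 genes tested, 17.4% were called lower and 15.5% higher. The median log2 fold change was -0.40 over the members and -0.04 over all genes. By complex, 9 of 13 complex IV members tested were lower (median log2 fold change -0.66), 9 of 17 of complex V (-0.45), 4 of 8 of complex III (-0.33), 13 of 37 of complex I (-0.36), 4 of 12 assembly factors (-0.32) and 0 of 4 of complex II (0.07). DESeq2 called 9 members lower and 0 higher (5.69% and 6.18% of genes). EdgeR called 5 of 51 members lower and 0 higher among nuclei with 2000 to 8000 UMIs (5.28% and 6.17% of 7457 genes), and 13 of 91 lower and 0 higher within the cluster best filled in both regions (7.44% and 5.32% of 13899 genes). Median depth was 14001 and 12715.5 UMIs per lesional and 17478 and 18408.5 UMIs per parenchymal nucleus, and dissection, tagging and region cannot be told apart. The mix of clusters also differed between regions. Cluster 11 held 299 and 284 parenchymal but 13 and 2 lesional nuclei, and cluster 19 held 178 and 224 against 10 and 10. Cluster 4, the best filled in both regions, held 569 and 498 parenchymal and 147 and 69 lesional nuclei. The part of this mix in the 39 calls was not tested.

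Complex IV gave the largest shift by complex. Its summed level was 166 and 153 CPM in the lesion against 287 and 291 CPM in the parenchyma, a mean log2 ratio of -0.86. Cox7c, a small membrane subunit, was at 26.3 and 20.7 CPM in lesional and at 58.5 and 59.5 CPM in parenchymal excitatory-neuron-like nuclei. Its log2 fold change was -1.18 ± 0.12 (SE, edgeR adjusted p = 6.6e-13). Cox8a, another small subunit, was at 12.2 and 15.2 CPM against 30.02 and 29.9 CPM (-1.06 ± 0.15, edgeR adjusted p = 1.55e-08). Lesional values of both genes lay below the parenchymal values in each library. Among complex IV isoforms, Cox4i1 fell by 0.99, Cox6a1 by 0.84, Cox7a2 by 0.64 and Ndufa4 by 0.55 on the log2 scale (edgeR adjusted p from 3.60e-08 to 0.0377). Cox6b1 (0.00 ± 0.17) and Cox7a2l (-0.16 ± 0.16) did not pass the test.

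The c subunit genes of ATP synthase were all lower in the lesion. Atp5g1 was at 7.14 and 4.52 CPM in lesional and at 14.2 and 12.6 CPM in parenchymal excitatory-neuron-like nuclei (-1.03 ± 0.20, edgeR adjusted p = 2.78e-05), Atp5g3 fell by 0.88 and Atp5g2 by 0.47 on the log2 scale. In complex III, Uqcrb was at 2.78 and 2.58 CPM against 6.44 and 7.66 CPM (-1.22 ± 0.29, edgeR adjusted p = 0.000511). Uqcrfs1, the Rieske iron–sulfur protein, changed by -1.01 ± 0.33 (edgeR adjusted p = 0.0122). In complex I the accessory subunit genes Ndufb9 (-1.11 ± 0.19), Ndufa1 (-1.08 ± 0.36) and Ndufa6 (-1.03 ± 0.19) had the largest changes, with edgeR adjusted p of 1.96e-06, 0.0141 and 1.17e-05. Among assembly factors, Sdhaf1, which serves the iron–sulfur subunit of complex II, was at 0.529 and 0.323 CPM against 2.14 and 2.47 CPM (-2.14 ± 0.59, edgeR adjusted p = 0.00317). Ndufaf3 changed by -2.05 ± 0.46 (edgeR adjusted p = 0.000224), both from 1 to 8 UMIs in the lesion. Ndufaf4 was at 24.3 and 23.3 CPM against 49.1 and 47.9 CPM (-0.91 ± 0.12, edgeR adjusted p = 6.01e-09).

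The 2 members called higher were Ndufv2, at 48.1 and 43.3 CPM in lesional and 36.4 and 35.9 CPM in parenchymal excitatory-neuron-like nuclei (0.46 ± 0.11, edgeR adjusted p = 0.000838), and Sdhc, a membrane anchor of complex II, at 22.2 and 17.8 CPM against 17.97 and 16.1 CPM (0.36 ± 0.14, edgeR adjusted p = 0.0433). For Sdhc the groups overlapped between libraries, since 1 lesional value lay below 1 parenchymal value. Of the 10 members with the most UMIs, Ndufs4 (0.08 ± 0.09), Sdha (0.08 ± 0.11) and Ndufs1 (0.17 ± 0.11) were among those that did not pass the test.

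In inhibitory-neuron-like nuclei 90 members were tested, and edgeR called 7 lower and 0 higher, against 3.65% and 1.21% of the 13852 genes tested. At an unadjusted p under 0.05 there were 28 lower and 1 higher, beside 21.3% of all genes in either direction, and DESeq2 called 1 lower (Ndufaf4) and 0 higher, beside 1.54% and 0.527% of all genes. The 7 were Ndufaf4, Ndufa6, Atp5g3, Atp5g1, Cox7c, Cox8a and Cox7b, with log2 fold changes from -1.45 to -1.03 and edgeR adjusted p from 0.0113 to 0.0478. Ndufaf4 was at 27.6 and 19.1 CPM in lesional and 67.2 and 66.6 CPM in parenchymal nuclei (-1.45 ± 0.21), and Cox7c at 29.96 and 32.3 CPM against 77.7 and 72.9 CPM (-1.21 ± 0.19). For both genes each lesional value was less than any parenchymal value. Striatal-projection-like nuclei were unevenly spread over the sums, at 12 of 140 and 54 of 140 nuclei in the lesion. In the parenchyma they were 111 of 501 and 125 of 545 nuclei. Without the striatal-projection-like nuclei edgeR called 24 of 88 lower, including all 7, and 1 higher (Cox7b2), while 10.7% and 8.76% of 13120 genes were called. Cox7b2 was at 13.8 and 10.3 CPM in lesional and 4.25 and 5.69 CPM in parenchymal nuclei (1.35 ± 0.37), with an edgeR adjusted p of 0.0911 over all inhibitory-neuron-like nuclei.

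In astrocyte-like nuclei, with 38 and 47 parenchymal nuclei only, 76 members were tested. EdgeR called 9 lower and 0 higher, against 7.8% and 8.35% of 10995 genes, with 18 lower and 0 higher at an unadjusted p under 0.05 (28% of genes in either direction). The 9 were the complex IV genes Cox8a, Cox5a, Cox4i1 and Cox7c, the ATP synthase genes Atp5a1, Atp5b and Atp5c1 (its α, β and γ subunits), and the assembly factors Ndufaf1 and Ndufaf4. Cox8a had the largest change, from 47.5 and 107.2 CPM in parenchymal to 19.4 and 20.3 CPM in lesional nuclei (-2.11 ± 0.42, edgeR adjusted p = 0.0022). Of the parenchymal astrocyte-like nuclei 34 and 44 lay in cluster 27, which held only 65 and 16 lesional ones. The other lesional astrocyte-like nuclei lay in clusters 13 and 16, so region and cluster could hardly be told apart. No test was made within a single astrocyte-like cluster. In oligodendrocyte-like nuclei, with 26 and 31 parenchymal nuclei, edgeR called 0 of 25 members lower and 0 higher, against 0.46% and 0.19% of 6303 genes, with 4 lower and 0 higher at an unadjusted p under 0.05 (13.1% of genes). The summed members gave log2 ratios of -0.34 and -0.61 in astrocyte-like and -0.09 and -0.20 in oligodendrocyte-like nuclei. Whether classes differed from each other was not tested.

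**Figure D3:**
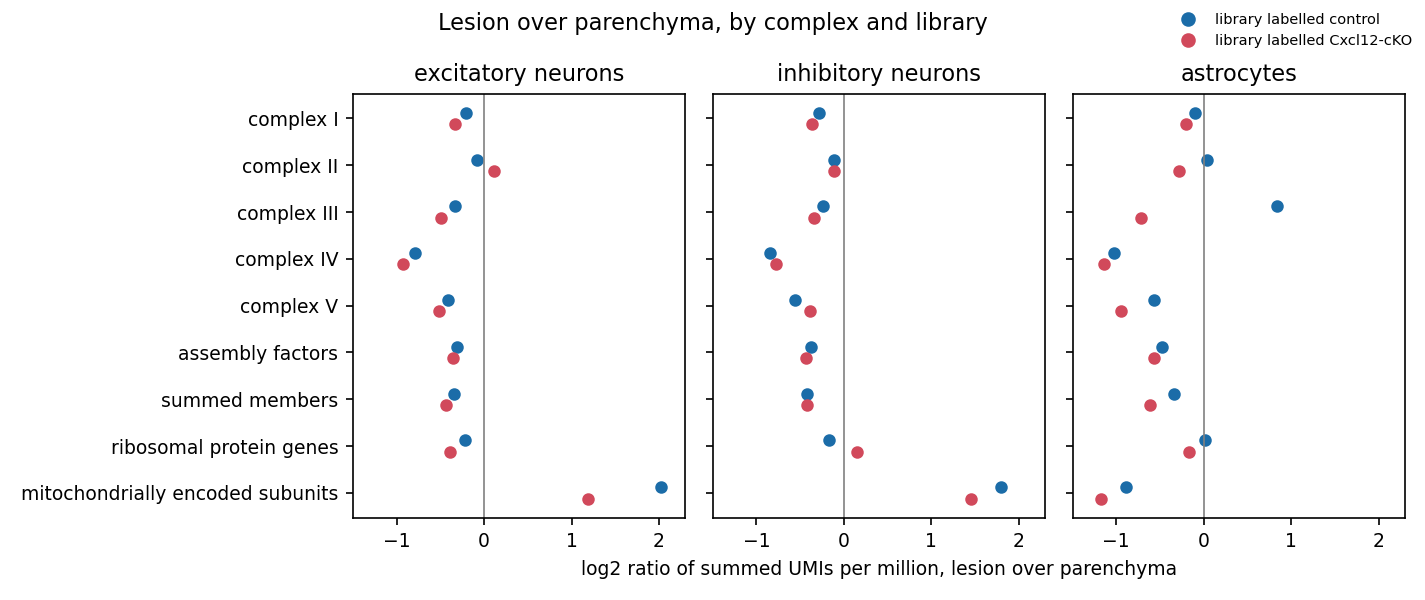
Log2 ratio of summed CPM, lesion over parenchyma (x axes), for each complex, the assembly factors, all members, ribosomal protein genes and mitochondrially encoded subunits (y axis), with 1 point for each library. Complex IV lies at -0.79 and -0.93 in excitatory-neuron-like nuclei, while mitochondrially encoded subunits lie at 2.02 and 1.19.

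Cox7c, Cox8a and Ndufaf4 were called lower in excitatory-neuron-like, inhibitory-neuron-like and astrocyte-like nuclei. Their promoters are shown because they moved together in 3 classes, as RefSeq sequence on GRCm38.p6, each 5′ to 3′ on the strand of the gene. They hold the 250 bases before the annotated start, and 2 further bases for Cox8a, where a match crosses the start. Windows of 250 bases before to 50 after the start were searched on both strands for the palindromic NRF1 motif, CCGGAAG (GABPA), AAGGTCA (oestrogen-related receptors) and a YY1 motif, all of factors known to act on respiratory chain genes. No match overlapped another in these 3 windows. Capitals mark matches.
Cox8a chr19:7217615-7217866 on the minus strand, with CCGGAAG read on the other strand: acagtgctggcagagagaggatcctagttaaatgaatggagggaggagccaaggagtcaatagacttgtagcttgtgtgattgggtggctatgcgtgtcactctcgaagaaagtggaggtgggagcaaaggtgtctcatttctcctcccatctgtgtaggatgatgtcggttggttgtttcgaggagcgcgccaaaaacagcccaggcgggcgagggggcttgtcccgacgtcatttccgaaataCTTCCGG
Ndufaf4 chr4:24897833-24898082 on the plus strand, with an NRF1 match: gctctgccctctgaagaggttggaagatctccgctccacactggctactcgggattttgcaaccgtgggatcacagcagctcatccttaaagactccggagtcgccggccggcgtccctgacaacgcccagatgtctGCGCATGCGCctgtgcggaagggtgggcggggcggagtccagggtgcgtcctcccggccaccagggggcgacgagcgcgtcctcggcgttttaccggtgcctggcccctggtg
Cox7c chr13:86046796-86047045 on the minus strand, with no match: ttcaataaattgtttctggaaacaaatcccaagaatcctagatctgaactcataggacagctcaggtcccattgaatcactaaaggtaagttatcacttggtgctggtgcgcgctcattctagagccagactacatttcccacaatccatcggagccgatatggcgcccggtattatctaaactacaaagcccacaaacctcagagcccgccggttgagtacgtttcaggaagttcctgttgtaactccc
The Cox8a window held 1 more CCGGAAG match after the start. Promoter windows were found for 79 of the 92 members. The NRF1 motif was in 21 of them (26.6%), against 5.19% of 27025 genes with a window and 9.96% of the 12503 tested in excitatory-neuron-like nuclei. CCGGAAG was in 22 (27.8%, against 9.93% and 17.3%), AAGGTCA in 8 (10.1%, against 5.38% and 4.08%) and the YY1 motif in 5 (6.33%, against 0.755% and 1.52%). The median GC content of the windows was 58.7%, against 52.8% and 60.0%. A match is a description of letters and not a bound site, and Cox7c was lower in the same 3 classes with no match in its window.

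Members called lower were mostly of short span. In excitatory-neuron-like nuclei 36 of 60 members under 10 kb were called lower by edgeR, with a median log2 fold change of -0.56. Of the other genes under 10 kb, 28.8% were called lower, with a median of -0.48. Of the 31 members of 10 kb and over, 3 were lower and 2 higher, with a median of 0.03, beside 12.9% lower and a median of 0.07 for other genes of that span. Under 5 kb the medians were -0.64 for the members and -0.63 for the other genes. Across the 91 members log2 fold change was higher at longer log10 span (r = 0.69, rho = 0.73, a description over genes of the same libraries), and across 17196 other genes r was 0.28 and rho 0.39. In inhibitory-neuron-like nuclei the medians were -0.61 for members and -0.49 for other genes under 10 kb, and -0.10 and 0.07 at 10 kb and over. In summed level, members under 10 kb gave log2 ratios of -0.65 and -0.79 in excitatory-neuron-like nuclei and those of 10 kb and over -0.09 and -0.13. Complex IV and complex V had 9 of 13 and 15 of 17 tested members under 10 kb, complex II 1 of 4, and the part of span in the differences between complexes was not tested.

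**Figure D4:**
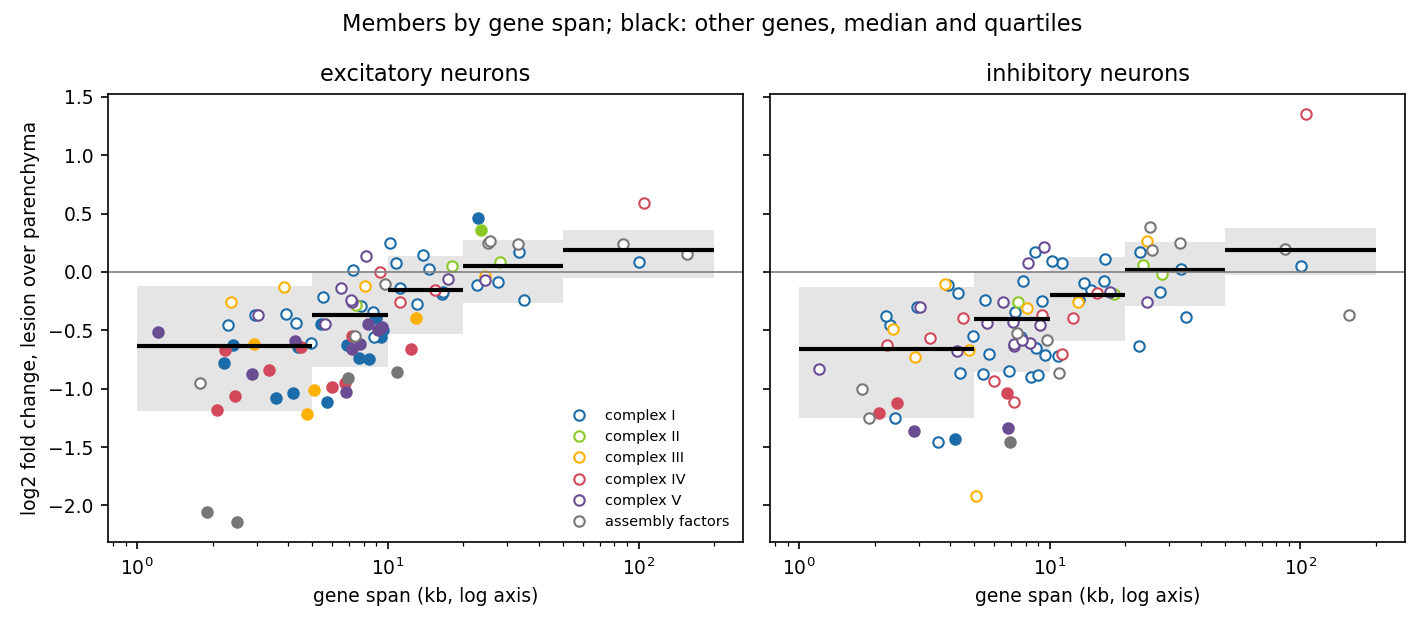
Log2 fold change of each member, lesion over parenchyma by edgeR (y axis), against the span of its gene in kb (x axis, log scale), in excitatory-neuron-like (left) and inhibitory-neuron-like nuclei (right). Colours mark complexes, filled points are members with an adjusted p under 0.05, and black lines with grey boxes are medians and quartiles of the other genes per range of span, from -0.63 under 5 kb to 0.19 at 50 kb and over on the left.

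The partner genes encoded in the mitochondrial genome went the other way in neurons. All 13 mitochondrially encoded subunits were called higher in the lesion by edgeR in excitatory-neuron-like nuclei (median log2 fold change 1.73) and 12 of 13 in inhibitory-neuron-like nuclei (1.76), while 11 of 13 were lower in astrocyte-like nuclei (-1.16). Their summed level in excitatory-neuron-like nuclei was 1482 and 1595 CPM in the lesion against 366 and 699 CPM in the parenchyma. These transcripts are made outside the nucleus, and how much free RNA each region carried was not tested. For example, mt-Co1, the catalytic subunit of complex IV, was at 204 and 220 CPM against 48.5 and 95.04 CPM (1.77 ± 0.10, edgeR adjusted p = 2.07e-25). The nuclear members of complex IV and its mitochondrially encoded core thus had opposite signs in the same nuclei. Ribosomal protein genes had log2 ratios of -0.22 and -0.39.

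Lists of related genes outside the pattern were counted in the same fit for excitatory-neuron-like nuclei. In that fit 17.4% of all 17783 genes tested were called lower and 15.5% higher. Of 18 complex IV assembly genes 7 were lower and 1 was higher, Taco1, a translational activator of mt-Co1, at 290 and 332 CPM in the lesion against 149 and 149 CPM (1.17 ± 0.08, edgeR adjusted p = 7.35e-21). Of 8 genes for cytochrome c and partners of complex III 3 were lower, among them Cycs, cytochrome c itself (-0.89 ± 0.27, edgeR adjusted p = 0.00595). Complex I assembly genes outside the pattern gave 2 of 8 lower, ATP synthase assembly 1 of 4, glycolysis 5 of 21 lower, and the TCA cycle 2 lower (Idh3b and Pdhb) and 2 higher (Cs and Ogdh) of 16. Of 16 transcriptional regulators 5 were higher and 0 lower, namely Nrf1 (0.70 ± 0.09), Esrrg (0.48 ± 0.08), Ppargc1b (0.30 ± 0.10), Yy1 (0.29 ± 0.11) and Epas1 (1.499 ± 0.48), with edgeR adjusted p from 6.9e-10 to 0.0384. Among non-member genes with a span of 50 kb and over, 1828 of 5068 were called higher. The part of span in the regulator calls was not tested. Ppargc1a, a coactivator of mitochondrial biogenesis, was at 57.2 and 53.3 CPM in the lesion against 62.3 and 64.7 CPM (-0.08 ± 0.10) and did not pass, and Gabpa (0.11 ± 0.15) and Tfam (0.06 ± 0.22) did not either. In inhibitory-neuron-like nuclei 1 complex IV assembly gene was higher, 1 TCA cycle gene lower, and no regulator or glycolysis gene was called. Over all genes tested there, 1.21% were called higher and 3.65% lower.

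The libraries were then compared within classes of at least 200 nuclei in each. In lesional fibroblast-like nuclei, where the Cre driver is expressed, the summed members were at 1964 and 1864 CPM. The log2 ratio was -0.08 (exact 95% interval -0.10 to -0.05), a difference of -5.12%. In lesional myeloid-like nuclei the ratio was -0.11 (-0.15 to -0.08), in lesional excitatory-neuron-like nuclei -0.07 (-0.12 to -0.01) and in lesional astrocyte-like nuclei -0.05 (-0.12 to 0.01). Parenchymal excitatory-neuron-like nuclei gave 0.02 (0.01 to 0.04) and parenchymal inhibitory-neuron-like nuclei 0.00 (-0.03 to 0.03). Nuclei were also assigned to the mouse of each sex by sex-linked transcripts. Fibroblast-like values were then 1951 and 1954 CPM in the female and the male mouse labelled control, and 1862 and 1855 CPM in those labelled Cxcl12-cKO. Myeloid-like values were 2782 and 2133 CPM against 2274 and 2123 CPM, so the myeloid-like ratio was -0.29 between the female and -0.0069 between the male mice. Myeloid-like nuclei of cluster 5, led by Mrc1, had 3525 and 3574 CPM and made up 34.0% and 26.4% of the myeloid-like nuclei of the lesion. The other myeloid-like nuclei had a ratio of -0.03.

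Few single members were at least 1.5-fold apart, among those with at least 100 UMIs in the class over both libraries. In fibroblast-like nuclei 0 of 87 members were that much higher in the library labelled Cxcl12-cKO (2.15% of 12554 genes) and 1 was lower (1.66%), the complex II assembly factor Sdhaf4 at 6.63 and 4.25 CPM (log2 ratio -0.64, -1.13 to -0.16). The highest ratio was that of Uqcr10, a small subunit of complex III, at 12.2 and 16.8 CPM (0.46, 0.17 to 0.75). In myeloid-like nuclei 0 of 78 were higher (2.03%) and 2 lower (2.01%), the complex I gene Ndufa8 at 13.9 and 8.08 CPM (-0.78, -1.37 to -0.20) and Atp5g3 at 18.2 and 11.6 CPM (-0.65, -1.14 to -0.15). In lesional astrocyte-like nuclei 0 of 26 were higher (2.72%) and 1 lower (4.04%), Atp5b at 36.1 and 23.4 CPM (-0.63, -1.13 to -0.12). Below these, Uqcrfs1, Ndufb7, Ndufc2 and Uqcrh had ratios from -0.52 to -0.37 in fibroblast-like nuclei, and Ndufa11, Ndufs7 and Cox6c from -0.58 to -0.44 in myeloid-like nuclei. The highest in the latter was Ndufa12 (0.42, -0.03 to 0.88).

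In lesional excitatory-neuron-like nuclei 2 of 53 members were higher (1.17% of 8203 genes), Uqcr10 (0.69, 0.09 to 1.29) and Ndufv1 (0.59, 0.02 to 1.15). Another 3 were lower (2.69%), the complex I genes Ndufb3 (-0.87, -1.56 to -0.24) and Ndufb2 (-0.60, -1.22 to -0.02) and the complex V gene Atp5j2 (-0.76, -1.43 to -0.15). The more deeply counted parenchymal excitatory-neuron-like nuclei had 0 of 91 higher (1.26%) and 0 lower (0.466%), with log2 ratios from -0.18 (Sdhd) to 0.35 (Ndufs7). In parenchymal inhibitory-neuron-like nuclei 2 of 82 were higher (0.924%), Ndufa2 (0.64, 0.13 to 1.16) and Ndufa1 (0.64, 0.04 to 1.25), and 0 lower (0.698%). Per class and direction 0 to 3 members thus passed 1.5-fold, beside 0.466% to 4.04% of all genes. Mitochondrially encoded subunits differed more, with log2 ratios of 0.94 and 0.95 in parenchymal excitatory-neuron-like and inhibitory-neuron-like nuclei and -0.25 and -0.31 in lesional fibroblast-like and myeloid-like nuclei.

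**Figure D5:**
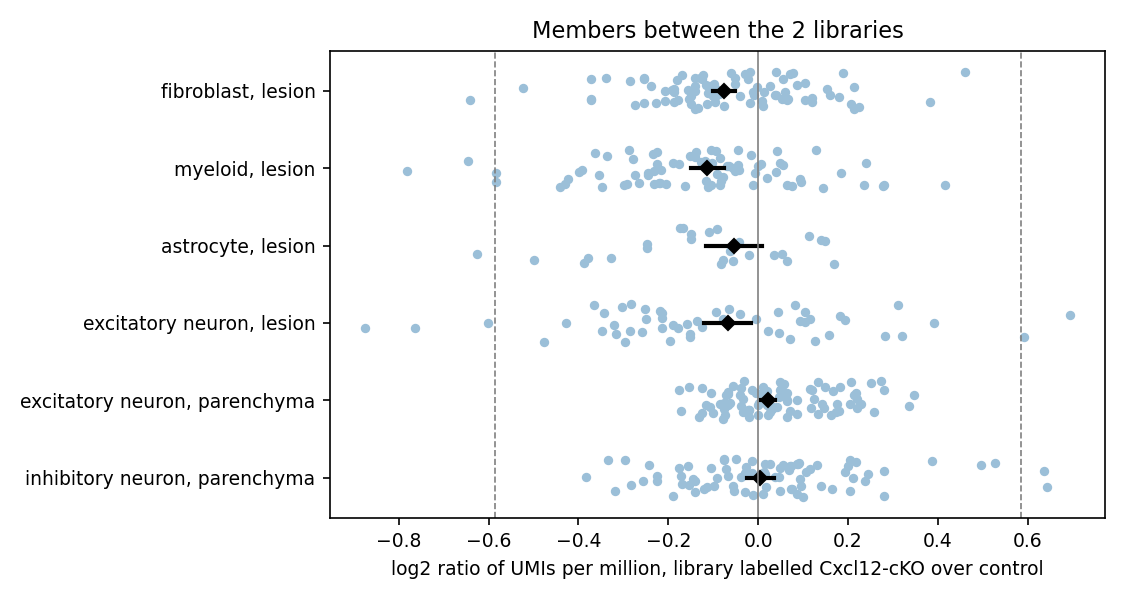
Log2 ratio of CPM, Cxcl12-cKO over control library by label (x axis), of each member with at least 100 UMIs in 6 combinations of class and region (y axis). Blue points are members, black diamonds with lines are all members summed with their exact 95% interval, dashed lines are 1.5-fold, and the diamonds run from -0.11 in lesional myeloid-like nuclei to 0.02 in parenchymal excitatory-neuron-like nuclei.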

How the data were processed

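Single-nucleus RNA was profiled by 10x 3′ sequencing, and the authors deposited filtered matrices of raw UMI counts per gene and nucleus, made with Cell Ranger 9.0.0 on GRCm39 according to the submitters' processing notes. Intronic reads of pre-mRNA can enter such counts, so long genes may gain UMIs. Nuclei were kept without the lowest and highest 2.5% by UMIs (757.2 to 36243.8 kept) and by genes (584.2 to 6418.6 kept) and without the highest 2.5% by mitochondrial share (at most 8.75% kept). These limits were set over all matrices together and removed more of the parenchymal UMIs. Kept were 47587997 of 62701074 and 48051671 of 62749811 UMIs in the parenchyma. In the lesion 33470866 of 34769874 and 30864931 of 31995274 were kept. Counts of the 3000 most variable genes were reduced to 30 components and clustered by the Leiden method (20 neighbours, resolution 1, 38 clusters; alternative 0.25, 21 clusters) in scanpy 1.11.5 and leidenalg 0.10.2. A cluster was named where at least 3 markers and a mean log2 fold of 1 (0.3 for neuronal subtypes) held, thresholds set after the clusters were seen. Clusters with at least 25% of nuclei bearing transcripts of both sexes stayed unnamed. Scrublet marked 2 and 18 barcodes, too few to be of use, so removing the top 10% of scores served as the doublet alternative.

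Counts were summed per class, region and library where each sum held at least 20 nuclei, and tested with edgeR 4.0.16 (quasi-likelihood F test, library as a block, Benjamini-Hochberg over all genes) in R 4.3.3, with DESeq2 1.42.0 as an alternative. The 2 libraries are the only replicates, so each gene has few residual degrees of freedom. The p-values therefore rest largely on a spread between sums that edgeR shares across genes, and little on the spread of the single gene. Its common dispersion was 0.00455 in excitatory-neuron-like and 0.0261 in inhibitory-neuron-like nuclei. The libraries differ in genotype label, so any difference of the region effect between genotypes is part of that spread. Libraries were compared with exact Poisson and binomial intervals, for genes with at least 100 UMIs and calls at 1.5-fold. Gene spans came from a GRCm38 annotation and served as lengths only, matched by gene ID, and promoter windows from RefSeq on GRCm38.p6, matched by symbol or synonym. The test was tried on simulated counts first.

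Genes named in the text were the 10 members with the most UMIs, members 4-fold above their median class on at least 100 UMIs (none), the isoform sets, the 10 largest changes in each direction between regions, the extremes among the 5 highest and 5 lowest ratios between libraries, and every gene of a count of 5 or fewer. Members and lists were chosen with earlier results of these data known. Alternatives were the nucleus and gene filters, depth, doublets, clustering, mean of per-nucleus shares, sex of the mouse by transcripts, assembly factors left out, DESeq2 and the library block. The single cluster, the split by span and leaving out striatal-like or Mrc1-led nuclei were added after the data were seen. The 13 members without a promoter window in the search were left out of the motif counts. Windows on a single chromosome had been dropped beforehand for all genes, so some of the 13 may lack a window for this reason.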

Additional observations from a re-analysis of the deposited data

Results flagged for a closer look

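Ratios of lesion over parenchyma had opposite signs between classes, in both libraries of each class, in 7 cases, and none of these differences was tested. Mitochondrially encoded subunits were higher in the lesion in excitatory-neuron-like and inhibitory-neuron-like nuclei and lower in astrocyte-like nuclei, with log2 differences between classes of 2.64 and 2.66. They were also higher in oligodendrocyte-like nuclei, which put astrocyte-like nuclei -2.42 below these. Ribosomal protein genes were lower in excitatory-neuron-like and higher in oligodendrocyte-like nuclei (difference -0.50).

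Complex II members were lower in inhibitory-neuron-like and higher in oligodendrocyte-like nuclei of the lesion, a log2 difference of -0.41. Members of 10 kb and over were lower in excitatory-neuron-like and inhibitory-neuron-like nuclei and higher in oligodendrocyte-like nuclei, with differences of -0.30 and -0.34. Oligodendrocyte-like and astrocyte-like values in the parenchyma came from 26 and 31 and from 38 and 47 nuclei. Most astrocyte-like nuclei of the lesion lay in other clusters than most of those of the parenchyma.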

How the results depend on the processing

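No paired analysis between genotypes was possible because each genotype had 1 library. The test between regions had the library as a block. Without it edgeR called 38 members lower and 2 higher in excitatory-neuron-like nuclei (3079 and 2807 of 17783 genes). In inhibitory-neuron-like nuclei it called 10 lower and 0 higher (713 and 311 of 13852 genes). Of 137 alternatives 88 stayed within the error or within 1.5 times the count, and 49 moved. A reversal could be recorded only for ratios larger than their error, and 0 of these reversed. Counts of calls could only stay or move. The sign of 2 ratios near 0 changed, both of parenchymal inhibitory-neuron-like nuclei between libraries. Leaving out either library left no residual degrees of freedom, so those values have no test. Lesion over parenchyma of the summed members in excitatory-neuron-like nuclei (-0.40) ran from -0.44 to -0.35 with 1 library left out, and was -0.53 in nuclei of 2000 to 8000 UMIs, -0.34 in the single cluster, -0.72 for members under 10 kb and -0.11 for those of 10 kb and over. In inhibitory-neuron-like nuclei (-0.42) it was -0.65 at 2000 to 8000 UMIs, -0.48 as a mean of per-nucleus shares, -0.38 in nuclei of female mice, -0.47 in the single cluster, -0.72 under 10 kb and -0.15 at 10 kb and over.

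Excitatory over inhibitory neurons in the parenchyma (-0.44) was -0.28 at 2000 to 8000 UMIs, -0.40 by per-nucleus shares and -0.42 in male mice. Lesional myeloid over fibroblast-like nuclei (0.31) was 0.15 at up to 1% mitochondrial UMIs, 0.24 at 2000 to 8000 UMIs, 0.26 by per-nucleus shares, 0.40 in female and 0.16 in male mice, 0.34 without assembly factors and 0.045 without the Mrc1-led cluster. Astrocyte over fibroblast-like nuclei (-0.13) was -0.16 without the top Scrublet scores.

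Between libraries, myeloid-like nuclei (-0.11) gave -0.047 at up to 1% mitochondrial UMIs, -0.043 at 2000 to 8000 UMIs, -0.026 by per-nucleus shares, -0.29 in female and -0.0069 in male mice and -0.032 without the Mrc1-led cluster. Parenchymal excitatory-neuron-like nuclei (0.02) gave 0.054 at 2000 to 8000 UMIs, 0.052 by per-nucleus shares, 0.0027 in female and 0.048 in male mice, and inhibitory-neuron-like nuclei (0.00) gave -0.031 in female mice and -0.020 without the top Scrublet scores.

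Of the members called by edgeR in excitatory-neuron-like nuclei (39 lower, 2 higher), 9 lower and 0 higher were called by DESeq2. At 2000 to 8000 UMIs 5 and 0 were called, and in the single cluster 13 and 0, beside the shares of genes given above. With no filter 1 was higher, beside 1985 of 27204 genes. All 9, 5 and 13 were among the 39. In inhibitory-neuron-like nuclei (7 lower, 0 higher) 13 of 92 members were lower and 1 higher with no filter (1122 and 336 of 24357 genes). By DESeq2 1 of 90 was lower (213 of 13852 genes), and at 2000 to 8000 UMIs 1 of 35 (121 of 6033 genes). Without the top Scrublet scores 3 of 90 were lower (384 of 13028 genes), and in the single cluster 14 of 84 (880 of 11065 genes). Without striatal-like nuclei 24 of 88 were lower and 1 higher (1407 and 1149 of 13120 genes). The cause of these shifts was not tested.

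Depth limits the single members between libraries: in lesional excitatory-neuron-like and astrocyte-like nuclei 53 and 26 of the 92 members reached 100 UMIs.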
